A study of Mus musculus with 6 samples.

Results

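The genes described here encode the subunits of potassium, voltage-gated calcium and voltage-gated sodium channels. They are the 95 rows of the deposited gene table whose symbol begins with Kcn and further letters before a digit, with Cacna, Cacnb or Cacng, or with Scn and a digit, out of 20596 rows with a gene symbol; Kcnq1ot1, a long noncoding RNA, was left out. By ion, 63 are potassium, 17 calcium and 12 sodium channel genes, and 3 are antisense transcripts of potassium channel genes. RNA was sequenced from 266.6 cells, a mouse line from a pancreatic acinar tumour, in 3 libraries labelled as exposed to medium conditioned by cancer-associated fibroblasts (CAF_CM) and in 3 control libraries. Both groups share the line and its serum-supplemented growth medium with high glucose, and no genetic change is named. The same note, of an exposure of up to 40 days, stands on every sample, controls included, so the time in culture of each library is not known, and an effect of the medium and one of time cannot be told apart. The labels do not say whether replicates were separate cultures, and p-values reflect no more than how far these libraries scatter, part of which may be technical. In such bulk RNA, fewer cells of a type and less RNA per cell cannot be told apart. All libraries come from 1 line, so they describe that line and not acinar tissue.

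Voltage-gated channels open when the membrane depolarizes: sodium channels carry the upstroke of action potentials, calcium channels let in the calcium that drives secretion and transcription, and potassium channels bring the membrane back to rest. Inward rectifier and tandem-pore potassium channels set the resting potential, and calcium-activated potassium channels couple it to internal calcium. Many pore-forming alpha subunits, those of voltage-gated channels above all, work with auxiliary subunits that govern traffic and gating. Acinar cells of the exocrine pancreas are classed as non-excitable and secrete after calcium release from internal stores, whereas the endocrine cells of the islets fire calcium action potentials under the control of the ATP-sensitive potassium channel.

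The libraries held between 18622370 and 21002226 reads. A value here is a normalized count, a read count that the authors divided by 1 factor per library, in which 1 read is worth between 0.949 and 1.05. Libraries of the CAF_CM group varied more among themselves (edgeR biological coefficient of variation 8.23%) than controls (2.20%). Of the acinar markers, all 15 of 15 listed had a row, with a summed value between 70466 and 73031 in control and between 39652 and 46239 in CAF_CM libraries, and 7 were called lower and 1 higher. The neuronal markers with a row (12 of 16 listed) summed to between 6755 and 6920 in control and to between 8975 and 9980 in CAF_CM libraries, and 10 of the 12 were called higher; the part of this in the channel results was not tested. Of 20 islet markers, 15 had a row, with a sum between 36731 and 37234 in control and between 27827 and 29885 in CAF_CM libraries that was mostly Chga. Single islet markers went both ways, with 2 called higher and 3 lower of 11 tested. The hormone genes Ins1, Ins2, Sst and Iapp had no row and were not analysed here. For fibroblasts, 8 of 12 markers had a row and summed to between 3515 and 3710 in control and between 3165 and 3649 in CAF_CM libraries, most of it Pdgfrb; Col3a1, Lum, Fap and Fn1 had no row and were not analysed here. Immune markers (3 of 12 with a row) summed to between 95.4 and 107 in control and between 62.7 and 99.7 in CAF_CM libraries, and endothelial markers (4 of 9) to between 484 and 579 and between 407 and 467. Duct markers (8 of 9) summed to between 1180 and 1217 in control and between 1621 and 2064 in CAF_CM libraries, and muscle markers (7 of 11) to between 776 and 828 and between 698 and 906. Of the duct markers 3 of 6 tested were called higher, and of the muscle markers 1 of 3, with 0 called lower in either list.

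Channel genes changed in both directions and mostly by less than 2-fold. Of the 95 members, 74 reached 10 normalized counts in 3 or more libraries and entered the test. In CAF_CM libraries 11 were called higher and 10 lower, with 0.05 as the threshold for the adjusted p (limma on log2(value + 1), Benjamini-Hochberg over all 16169 genes tested). These are 14.9% and 13.5% of the tested members, beside 18.3% of all genes tested that were called higher and 16.1% called lower, and 28.4% beside 34.4% in either direction. On the log2(value + 1) scale 1 called member, Kcnd2, changed by 2-fold or more. Kcnj3 and Kcnq3 lay just under this bound, and Kcnj3 passed it with a pseudocount of 0.5 (log2 difference 1.03) and in edgeR (1.04). The median absolute log2 difference was 0.42 over the called members and 0.34 over all called genes, and this gap was not tested. The median log2 difference (CAF_CM minus control) was 0.11 over the tested members and 0.00459 over all genes tested, and 63.5% of members and 50.6% of all genes tested had a positive difference. With transcript length and GC content corrected for, the medians lay closer together, at 0.0547 over the members and 0.0336 over all genes tested. The groups did not overlap in 18 members that were higher and 14 that were lower in CAF_CM libraries, against 24.8% and 22.9% of all genes tested. By ion, 8 potassium channel genes rose and 6 fell of 49 tested, 3 calcium channel genes rose and 3 fell of 16, and 1 sodium channel gene fell of 9. Among pore-forming subunits 7 rose and 8 fell of 54 tested, and among auxiliary subunits 4 rose and 2 fell of 20. Of the 21 calls, 8 stood under every alternative they entered, among them Kcnd2, Kcnq3, Kcnh1, Cacna1g, Kcnh6, Cacna1h and Scn8a. Kcnd2 did not enter the fit of genes with a mean of at least 50 normalized counts.

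**Figure D1:**
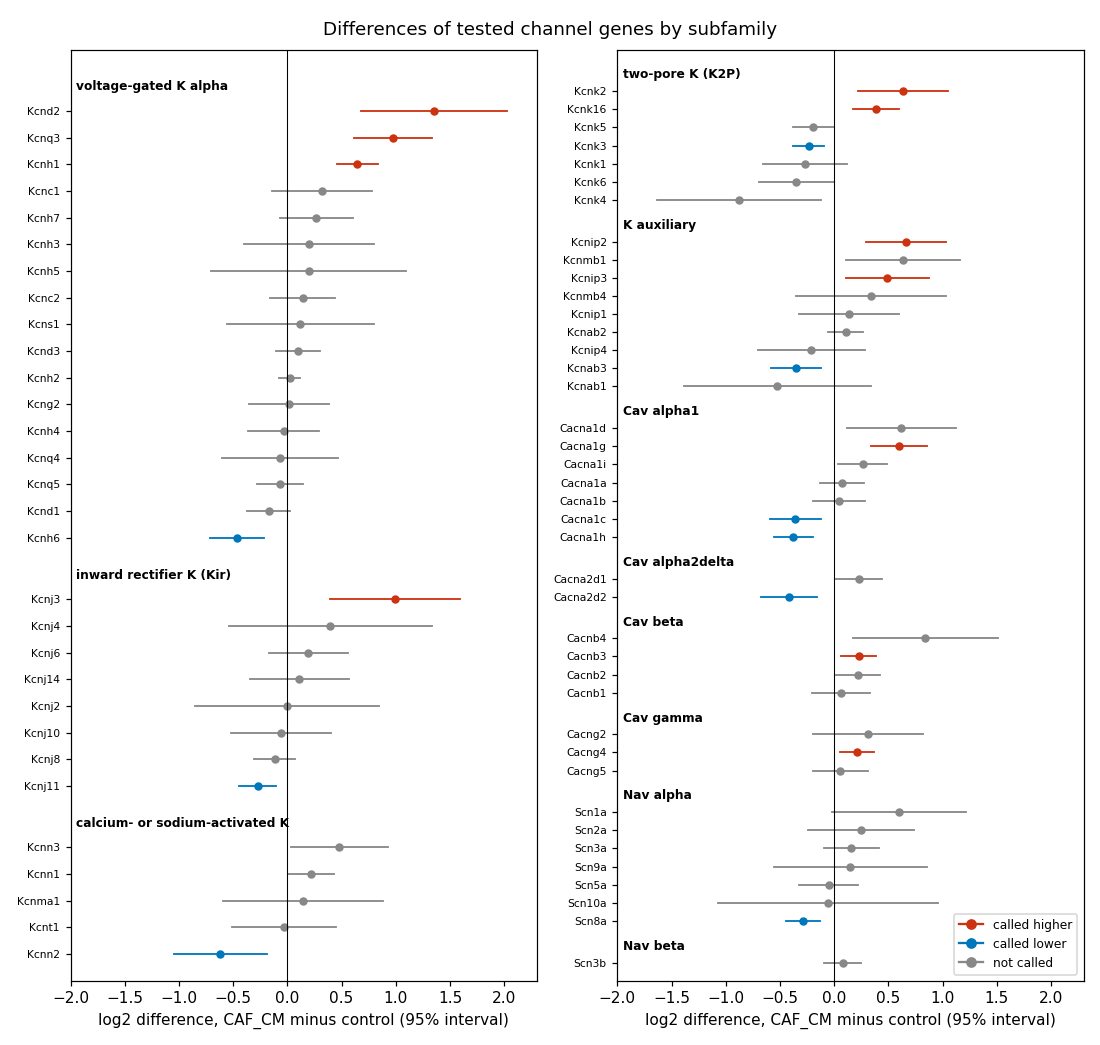
Log2 difference (CAF_CM minus control) on the horizontal axis for 70 of the 74 tested channel genes, grouped by subfamily; points are limma estimates and lines 95% intervals, red for called higher, blue for called lower and grey for not called. Red and blue points stand side by side within the voltage-gated, inward rectifier, tandem-pore, potassium auxiliary and Cav alpha1 groups.

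Levels are compared between genes per kilobase of the longest annotated transcript, since longer transcripts yield more reads. The highest was Kcnk3, which encodes a tandem-pore background channel closed by extracellular acid, at 2232 ± 67.1 normalized counts per kilobase in control and 1901 ± 181 in CAF_CM libraries (mean ± SD, with n = 3 in each group for all such values). Kcnh2, which encodes the ERG channel of the delayed rectifier current in heart, came next at 1061 ± 19.1 and 1076 ± 27.9, followed by the T-type calcium channel gene Cacna1h at 888 ± 13.6 and 687 ± 94.5. Cacnb3, a cytoplasmic beta subunit of calcium channels, stood at 407 ± 6.14 and 478 ± 53.9 per kilobase, and Kcnj11, the pore of the ATP-sensitive potassium channel, at 326 ± 15.8 and 270 ± 28.3. Kcnj11 and the next gene, Cacng5 (298 ± 8.20 and 315 ± 69.8), overlapped in CAF_CM libraries but not in control libraries, and the ranges of Kcnk3, Kcnh2 and Cacna1h did not overlap each other in either group. Of the 12 members with the highest level, 3 were called higher and 6 lower, where of the 8111 tested genes at or above the lowest level among these 12, 25.5% were called higher and 16.2% lower. Of the 40 tested members under 30 normalized counts per kilobase, 6 were called higher and 1, Kcnn2, lower, where of the 3442 tested genes under that level 7.06% were called higher and 14.4% lower. These are counts of few genes, and the difference between members and other genes was not tested. Among the 6, Kcnd2 and Kcnj3 met the filter through the CAF_CM libraries, and Kcnip3 lost its call in 14 of 17 alternatives. The median control level was 182 per kilobase for the members called lower and 16.7 for those called higher, which include Kcnd2 and Kcnj3. Such medians were not taken over all called genes.

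**Figure D2:**
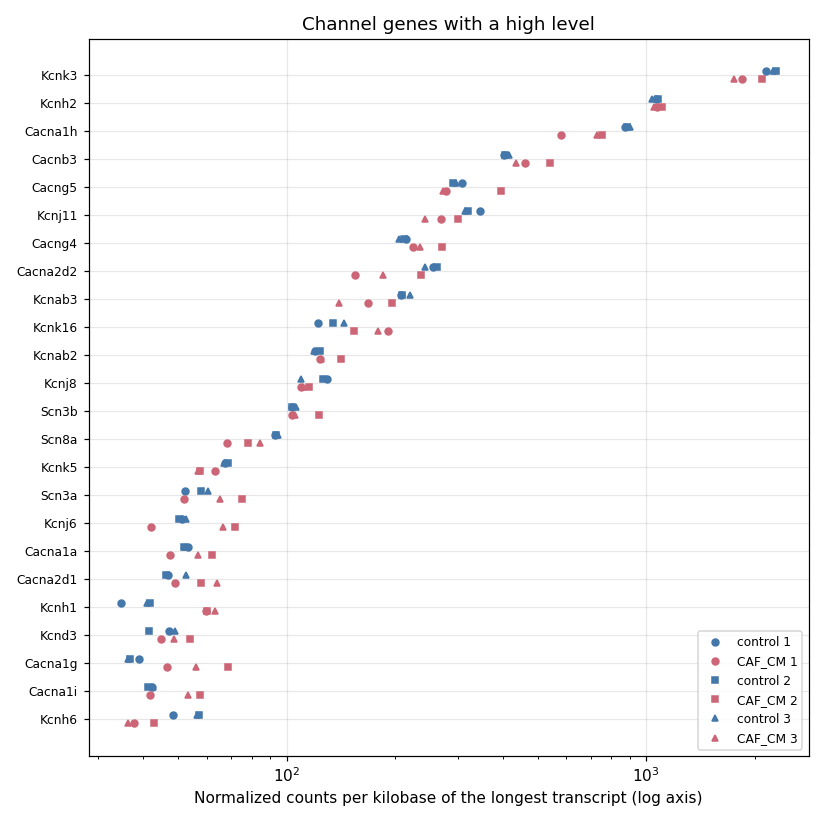
Normalized counts per kilobase (horizontal log axis) of 24 channel genes with a high level, 1 symbol per library, blue for control and red for CAF_CM. Kcnk3, Kcnh2 and Cacna1h stand above the rest in both groups.

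Among voltage-gated potassium channel alpha subunits (27 members, 20 tested), 3 rose and 2 fell. Kcnd2, the pore of a rapidly inactivating A-type current, held 12.5, 8.16 and 8.37 normalized counts in control libraries and 38.1, 22.5 and 19.9 in CAF_CM libraries, in the order of replicates 1 to 3 used for all values below. Every CAF_CM library was above every control, with replicate 1 highest, and the change was 2.55-fold (log2 difference 1.35, SE 0.31, limma adjusted p = 0.00590). Of the controls only replicate 1 reached 10 normalized counts, so Kcnd2 met the filter through the CAF_CM libraries. Without a filter on low values its limma adjusted p was 0.00595. Its paralogs of the same current did not pass the test: Kcnd3 had 329 ± 27.4 and 352 ± 33.0 normalized counts in control and CAF_CM libraries (log2 difference 0.10, 95% interval -0.11 to 0.30) and Kcnd1 254 ± 21.9 and 225 ± 8.40 (-0.17, interval -0.37 to 0.0278). Kcnd2 therefore remained a small part of the family, at 1.96% ± 0.468 of the summed level per length of the 3 genes in control and 5.43% ± 2.19 in CAF_CM libraries.

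Kcnq3 encodes a partner subunit of the M-current, a slow brake on repetitive firing. Its values were 45.3, 52.0 and 55.5 normalized counts in control and 86.5, 123 and 95.9 in CAF_CM libraries, without overlap, a 1.97-fold rise (log2 difference 0.98, SE 0.16, limma adjusted p = 0.00105). CAF_CM replicate 2 was highest, and the level per length was 4.31 ± 0.439 normalized counts per kilobase in control and 8.62 ± 1.62 in CAF_CM libraries.

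The ether-a-go-go family moved in both directions. Kcnh1, an EAG channel that is largely confined to brain and is often found in tumour cells, held 251, 302 and 296 normalized counts in control and 432, 436 and 459 in CAF_CM libraries. The treated libraries agreed closely and the groups were well apart (1.57-fold, log2 difference 0.65, SE 0.0861), with the lowest adjusted p of the tested channel genes (limma, 2.81e-04). Kcnh6, an ERG channel, fell from 163, 192 and 189 to 127, 144 and 122 normalized counts (log2 difference -0.47, SE 0.11, limma adjusted p = 0.00818). The main ERG gene, Kcnh2, held 4498, 4547 and 4390 normalized counts in control and 4526, 4668 and 4433 in CAF_CM libraries, which overlap, and its log2 difference of 0.0203 has a 95% interval of -0.0783 to 0.12; the sign turns with library totals as the scaling. The other 15 tested members of this group were not called, and their log2 differences ran from that of Kcnd1 to 0.32 for Kcnc1.

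**Figure D3:**
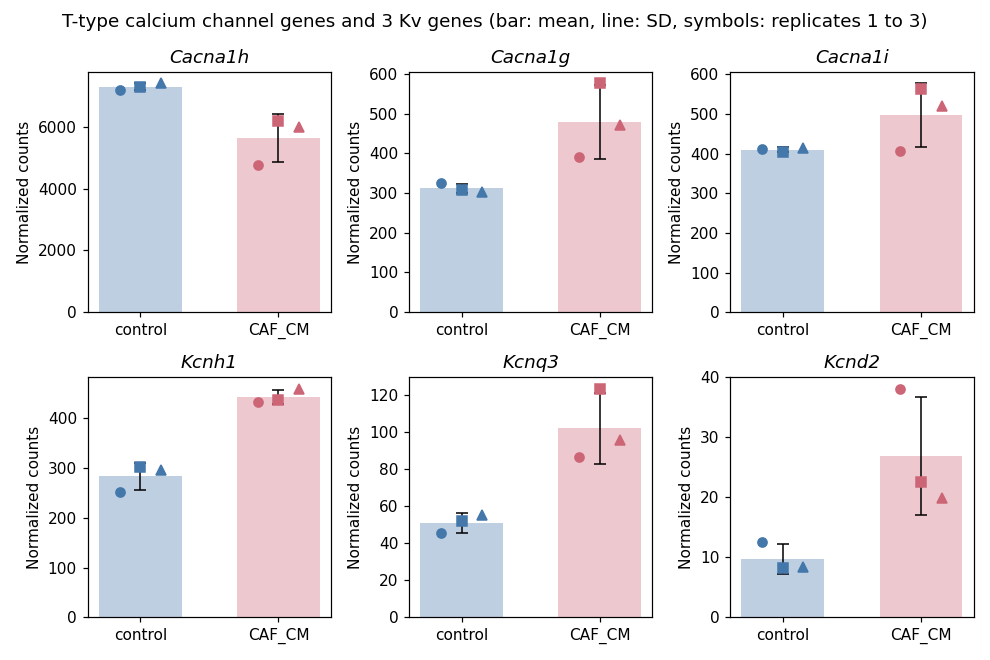
Normalized counts (vertical axes from 0) of 3 T-type calcium channel genes and 3 voltage-gated potassium channel genes; bars are group means, lines the SD of 3 libraries and symbols the libraries, circle, square and triangle for replicates 1 to 3. Cacna1h lies lower and Cacna1g higher in CAF_CM libraries, and Cacna1i overlaps through CAF_CM replicate 1.

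The promoters of 3 of the potassium channel genes that rose and of 1 that fell are printed to show how the start regions of genes that moved compare. They were picked after their values were seen, have 1 window each in the RefSeq table (GRCm38.p6), and run from 250 bases before to 50 after it, read 5′ to 3′ on the gene's strand. Of the 95 members, 68 matched this table by symbol, with 100 windows. Capitals mark the GC box GGGCGG, bound by SP factors, the E-box CANNTG, bound by bHLH factors, and TTCAGCACC, the left part of the element of the neuronal repressor REST, each searched on both strands.
Kcnd2, chr6:21215096-21215395, + strand: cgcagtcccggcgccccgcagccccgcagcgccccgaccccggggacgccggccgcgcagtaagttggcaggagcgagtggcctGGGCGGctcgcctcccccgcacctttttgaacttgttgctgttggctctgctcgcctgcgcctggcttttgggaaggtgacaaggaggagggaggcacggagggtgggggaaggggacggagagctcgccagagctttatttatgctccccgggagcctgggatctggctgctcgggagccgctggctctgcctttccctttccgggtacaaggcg
Kcnh1, chr1:192190527-192190826, + strand: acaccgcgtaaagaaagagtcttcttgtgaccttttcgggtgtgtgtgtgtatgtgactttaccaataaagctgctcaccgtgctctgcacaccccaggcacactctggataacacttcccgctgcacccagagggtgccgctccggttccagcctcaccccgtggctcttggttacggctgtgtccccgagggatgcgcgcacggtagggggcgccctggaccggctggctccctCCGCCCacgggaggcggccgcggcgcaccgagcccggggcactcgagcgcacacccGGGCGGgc
Kcnj3, chr2:55435720-55436019, + strand: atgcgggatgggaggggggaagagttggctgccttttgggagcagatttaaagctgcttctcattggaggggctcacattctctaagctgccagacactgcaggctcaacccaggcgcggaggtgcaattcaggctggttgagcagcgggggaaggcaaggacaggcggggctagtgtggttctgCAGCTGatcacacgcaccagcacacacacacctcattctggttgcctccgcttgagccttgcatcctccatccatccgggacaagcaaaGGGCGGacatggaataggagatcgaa
Kcnh6, chr11:106007898-106008197, + strand: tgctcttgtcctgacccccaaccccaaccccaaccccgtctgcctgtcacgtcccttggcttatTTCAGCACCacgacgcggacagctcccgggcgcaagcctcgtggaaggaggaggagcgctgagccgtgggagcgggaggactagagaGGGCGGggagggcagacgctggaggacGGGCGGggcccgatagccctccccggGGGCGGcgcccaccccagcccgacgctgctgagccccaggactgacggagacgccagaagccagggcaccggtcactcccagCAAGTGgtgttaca
The windows of Kcnd2 and Kcnh1 have 26 and 27 CpG, 1 and 2 GC boxes and no E-box. That of Kcnj3 has 10 CpG, 1 GC box and 1 E-box. That of Kcnh6 has 24 CpG, 3 GC boxes, 1 E-box and TTCAGCACC at position 65, counted from 1 at the 5′ end, with GGACAG, the start of the right part, at position 81 and 7 bases between. Whether these parts at this spacing make a REST element was not tested. GGACAG also stood in the window of Kcnj3, at position 160 and without TTCAGCACC. TTCAGCACC stood in 1 of the 100 member windows and in 0.371% of all 32851 windows. A GC box stood in 48.0% of member windows and 35.7% of all windows, and an E-box in 70.0% and 72.3%. A GC box is in all 4 printed windows. The gene of the repressor itself, Rest, had 174 ± 14.3 and 174 ± 1.96 normalized counts (log2 difference 0.00709, 95% interval -0.21 to 0.22). A match is a match of letters, and no binding was measured.

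Inward rectifiers (11 members, 8 tested) gave 1 rise and 1 fall. Kcnj11 fell from 1081, 1005 and 987 normalized counts in control to 846, 939 and 761 in CAF_CM libraries, without overlap (log2 difference -0.27, SE 0.0766, limma adjusted p = 0.0170). Abcc8, the sulfonylurea receptor with which it forms the ATP-sensitive channel of beta cells, fell from 4288, 4361 and 4229 to 2700, 3596 and 2937 normalized counts (log2 difference -0.49, SE 0.0845, limma adjusted p = 0.00126). Both genes of the channel were lower, with a Kcnj11 level per length of 0.370 ± 0.0182 of that of Abcc8 in control and 0.431 ± 0.0478 in CAF_CM libraries. Kcnj8 and Abcc9, the corresponding pair of blood vessels, did not pass the test (log2 differences -0.12 and 0.21). Kcnj3, a channel opened by G proteins, held 12.5, 8.16 and 10.5 normalized counts in control and 21.6, 17.6 and 25.6 in CAF_CM libraries, without overlap (log2 difference 0.99, SE 0.27, limma adjusted p = 0.0162). Control replicate 2 of Kcnj3 stayed under 10, so Kcnj3 also met the filter through the CAF_CM libraries. A lincRNA on the opposite strand covers 31.1% of its exon bases, and whether reads were counted by strand was not given in the sources used here. Other members share exon bases too, among them Kcnk2 (12.2%) and Cacnb4 (15.99%) with opposite-strand transcripts and Kcnk4 (13.15%) with a same-strand gene. Kcnj6, also a channel opened by G proteins, had 186 ± 3.96 and 219 ± 58.2 normalized counts (log2 difference 0.19, interval -0.17 to 0.56). The call of Kcnj11 was lost without control replicate 1 (limma adjusted p = 0.0896) or 2 (0.0509) or CAF_CM replicate 3 (0.0670), and that of Kcnj3 without control replicate 2 (0.0662), without CAF_CM replicate 3 (0.0654) and in DESeq2 (0.0762).

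The tandem-pore channels (9 members, 7 tested) are leak channels. The dominant one, Kcnk3, fell from 8229, 8734 and 8555 to 7053, 8007 and 6672 normalized counts, without overlap but with CAF_CM replicate 2 close to the controls (log2 difference -0.24, SE 0.0643, limma adjusted p = 0.0152). It made up 45.1% ± 0.714 of the summed level per length of all pore-forming potassium channel genes in control and 41.0% ± 1.38 in CAF_CM libraries. Kcnk16, the TALK channel known from beta cells, rose from 260, 286 and 308 to 408, 328 and 382 normalized counts (log2 difference 0.39, SE 0.0986, limma adjusted p = 0.0111). Kcnk5, which lies next to Kcnk16 with no protein-coding gene between, had 228, 233 and 227 and then 215, 195 and 193 normalized counts, lower without overlap but not called (log2 difference -0.19, 95% interval -0.38 to 0.001, limma adjusted p = 0.114). Kcnk2, a channel opened by stretch and lipids, rose from 54.9, 64.3 and 59.7 to 69.0, 120 and 95.9 normalized counts (log2 difference 0.63, SE 0.19, limma adjusted p = 0.0238), with CAF_CM replicate 1 near the controls. Kcnk4, a relative of Kcnk2, held 20.2, 24.5 and 22.0 and then 8.24, 21.5 and 8.54 normalized counts and was not called (limma adjusted p = 0.0687). The call of Kcnk3 was lost without control replicate 2 (limma adjusted p = 0.0767) or 3 (0.0608) or CAF_CM replicate 3 (0.0625), that of Kcnk16 without control replicate 1 (0.0624), and that of Kcnk2 without control replicate 1 (0.0912) or 3 (0.0660) or CAF_CM replicate 2 (0.0652) or 3 (0.0741).

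Calcium- and sodium-activated channels (6 members, 5 tested) gave 1 fall. Kcnn2, a small-conductance channel opened through calmodulin, fell from 75.1, 63.3 and 73.3 to 39.1, 61.7 and 38.9 normalized counts (log2 difference -0.62, SE 0.20, limma adjusted p = 0.0298). Its CAF_CM replicate 2 lay just under the lowest control. The related Kcnn1, the most abundant of this group per length, held 175, 157 and 158 and then 197, 183 and 191 normalized counts, higher without overlap but not called (log2 difference 0.22, limma adjusted p = 0.0994). Kcnma1, the large-conductance channel found in many exocrine glands, was near the limit of testing, at 11.6, 9.18 and 13.6 and then 8.24, 12.7 and 19.0 normalized counts (log2 difference 0.15, 95% interval -0.59 to 0.89); its sign turned without CAF_CM replicate 3 (-0.13). Kcnn4, the intermediate-conductance channel of acinar cells, was not analysed here. The call of Kcnn2 was lost without CAF_CM replicate 1 (limma adjusted p = 0.0618) or 3 (0.103), without control replicate 1 (0.108), 2 (0.0519) or 3 (0.0952), and in DESeq2 (0.0575).

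Of the auxiliary subunits of potassium channels (10 members, 9 tested), 2 rose and 1 fell. Kcnip2, a calcium-binding KChIP that brings Kcnd channels to the surface, rose from 40.5, 38.8 and 51.3 to 76.2, 61.7 and 69.3 normalized counts (log2 difference 0.66, SE 0.17, limma adjusted p = 0.0108), without overlap. Kcnip3, a KChIP that is also known as the repressor DREAM, rose from 34.7, 28.6 and 36.6 to 45.3, 48.0 and 47.5 (log2 difference 0.49, SE 0.17, limma adjusted p = 0.0489). Kcnip1 and Kcnip4 of the same family were not called (log2 differences 0.14 and -0.21). Kcnab3, a beta subunit with an oxidoreductase fold, fell from 528, 532 and 559 to 428, 498 and 355 normalized counts (log2 difference -0.35, SE 0.11, limma adjusted p = 0.0244). Its antisense transcript Kcnab3os, which covers 5.13% of the exon bases of Kcnab3, stayed at 10.5 or less. The call of Kcnip3 was lost in 14 of 17 alternatives, with limma adjusted p between 0.0649 and 0.174 without single libraries (without control replicate 1 or 2 or 3, and without CAF_CM replicate 1 or 2 or 3). That of Kcnip2 was lost without control replicate 2 (limma adjusted p = 0.0505), and that of Kcnab3 without control replicate 1 (0.0684), 2 (0.0677) or 3 (0.0902), without CAF_CM replicate 3 (log2 difference -0.22, 0.0798) and with transcript length and GC content corrected for (0.0568).

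**Figure D4:**
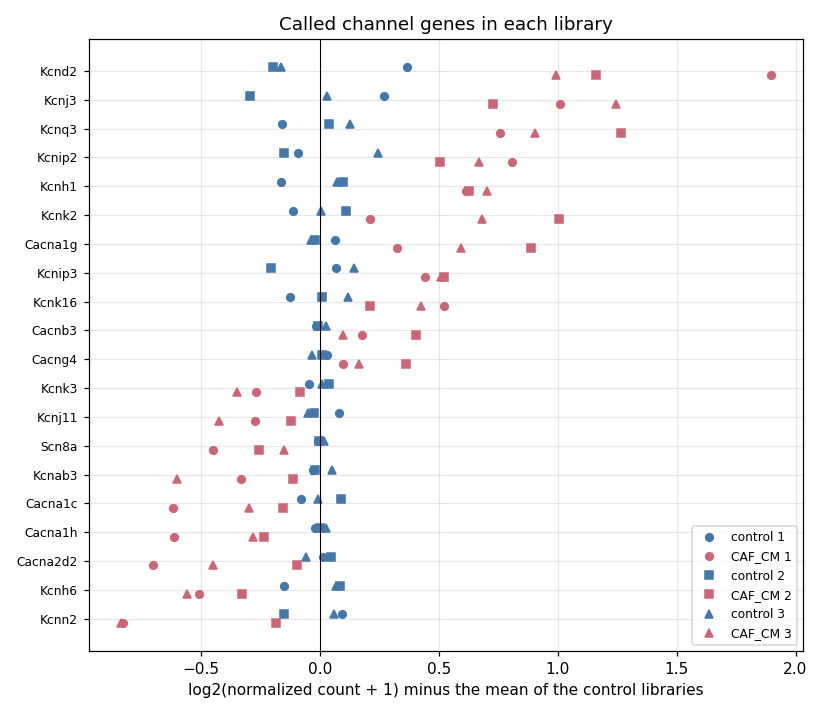
Called channel genes (20 of 21) in each library, as log2(normalized count + 1) minus the mean of the control libraries (horizontal axis); blue symbols are control and red CAF_CM, circle, square and triangle for replicates 1 to 3. No red symbol overlaps the blue ones of its gene, and CAF_CM replicate 2 (red squares) is the nearest to control for most of the falling genes.

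T-type calcium channels, which open near the resting potential, changed in opposite directions. Cacna1h fell from 7198, 7294 and 7421 to 4764, 6202 and 5998 normalized counts (log2 difference -0.38, SE 0.0827, limma adjusted p = 0.00475), with CAF_CM replicate 1 lowest. Cacna1g rose from 326, 307 and 304 to 390, 577 and 471 normalized counts (1.52-fold, log2 difference 0.60, SE 0.12, limma adjusted p = 0.00269). The third gene, Cacna1i, held 412, 404 and 416 and then 408, 563 and 521 normalized counts and was not called (log2 difference 0.26, interval 0.0338 to 0.49, limma adjusted p = 0.0724). Cacna1h stayed the main T-type gene, with 91.8% ± 0.244 of the summed level per length of the 3 in control and 86.5% ± 0.710 in CAF_CM libraries. The ratio of Cacna1g to Cacna1h per length was 0.0444, 0.0413 and 0.0402 in control and 0.0804, 0.0913 and 0.0771 in CAF_CM libraries, with every treated library above every control. The sum of the 3 genes was 967 ± 12.6 normalized counts per kilobase in control and 795 ± 113 in CAF_CM libraries. For such sums and ratios, an exact permutation test of 3 against 3 libraries cannot give a p under 0.1, and the values are given without a test.

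Of the remaining Cav alpha1 genes, the L-type gene Cacna1c fell from 522, 587 and 548 to 359, 496 and 448 normalized counts (log2 difference -0.36, SE 0.11, limma adjusted p = 0.0223). Cacna1d, the L-type gene of islet and neuroendocrine cells, was much lower at 27.0, 35.7 and 19.9 and then 37.1, 42.1 and 46.5, higher without overlap but not called (log2 difference 0.62, SE 0.23, limma adjusted p = 0.0555); it passed the threshold without control replicate 2 (0.0317) or CAF_CM replicate 1 (0.0411). Cacna1a and Cacna1b, which encode the P/Q-type and N-type channels of nerve terminals, had 415 ± 6.60 and 228 ± 13.4 normalized counts in control and 439 ± 57.7 and 237 ± 32.2 in CAF_CM libraries (log2 differences 0.0713 and 0.0455), and neither was called. The call of Cacna1c was lost without control replicate 2 (limma adjusted p = 0.0965) or 3 (0.0657), and its log2 difference was -0.23 without CAF_CM replicate 1.

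Auxiliary calcium channel subunits gave 2 rises and 1 fall in 9 tested. Cacna2d2, an extracellular alpha2delta subunit that raises channel density at the membrane, fell from 1484, 1519 and 1413 to 902, 1376 and 1075 normalized counts (log2 difference -0.42, SE 0.12, limma adjusted p = 0.0169). Cacna2d1, the other alpha2delta gene with a row, had 361 ± 25.9 and 424 ± 56.7 normalized counts (log2 difference 0.23, interval 0.00548 to 0.45, limma adjusted p = 0.105). Cacnb3 rose from 1101, 1107 and 1133 to 1259, 1473 and 1190 normalized counts (log2 difference 0.23, SE 0.0733, limma adjusted p = 0.0336). The low beta gene Cacnb4 held 8.67, 6.12 and 8.37 and then 11.3, 15.7 and 17.1 normalized counts; it passed the filter through the CAF_CM libraries alone and was not called (limma adjusted p = 0.0520). Among the gamma genes, of which these members also serve as AMPA receptor partners, Cacng4 rose from 751, 741 and 719 to 789, 948 and 825 normalized counts (log2 difference 0.21, SE 0.0722, limma adjusted p = 0.0441). Cacng5, its direct neighbour on chromosome 11, held 1138, 1078 and 1096 and then 1027, 1465 and 1008 and overlapped (log2 difference 0.0578, interval -0.20 to 0.31). The 2 gamma genes share the high value in CAF_CM replicate 2, without which the difference of Cacng5 was -0.12.

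These calls were sensitive to single libraries. That of Cacna2d2 was lost without control replicate 1 (limma adjusted p = 0.0643) or 2 (0.0658) or CAF_CM replicate 3 (0.0624), and its log2 difference was -0.27 without CAF_CM replicate 1. Cacnb3 lost its call without CAF_CM replicate 2 (log2 difference 0.14, limma adjusted p = 0.0661), without control replicate 1 (0.111), 2 (0.104) or 3 (0.0803), and it was also lost with library totals. Cacng4 lost it without CAF_CM replicate 2 (log2 difference 0.13, limma adjusted p = 0.105) or 3 (0.0680), without control replicate 1 (0.0993), 2 (0.115) or 3 (0.143), and in 4 alternatives of scaling or tool (0.0519 to 0.114).

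Of 9 sodium channel genes tested, 1 was called. Scn8a, the main neuronal alpha subunit at sites where spikes start, fell from 1063, 1066 and 1084 to 783, 895 and 963 normalized counts (log2 difference -0.29, SE 0.0729, limma adjusted p = 0.0105). Every CAF_CM library was below every control, and with transcript length and GC content corrected for the log2 difference was -0.44. Scn8a held 51.4% ± 1.40 of the summed level per length of the alpha subunit genes in control and 44.5% ± 3.37 in CAF_CM libraries. The next most abundant, Scn3a, had 543 ± 39.3 and 613 ± 111 normalized counts and overlapped (log2 difference 0.16, interval -0.0918 to 0.41). Scn3a and Scn2a are neighbours on chromosome 2, as are Scn1a, Scn9a and Scn7a in that order, yet Scn2a held only 23.1, 25.5 and 29.3 and then 23.7, 34.3 and 36.1 normalized counts (log2 difference 0.25, limma adjusted p = 0.430). Scn9a, the channel of pain neurons, which is also expressed in islets, held 7.71, 10.2 and 11.5 and then 8.24, 14.7 and 10.4 (log2 difference 0.15, interval -0.56 to 0.85). Of the beta subunits, Scn3b had 433 ± 6.74 and 459 ± 44.0 normalized counts and was not called (log2 difference 0.0792, interval -0.0932 to 0.25).

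The 21 members that were not tested, 18 subunit genes and the 3 antisense transcripts, stood at 13.7 normalized counts or less in every library. They include Kcnq1, the channel of gastric and inner ear epithelia, at 7.71, 9.18 and 8.37 in control and 6.18, 13.7 and 0.949 in CAF_CM libraries. The muscle genes Cacna1s and Scn4a were at 5.10 or less, and the atrial inward rectifier gene Kcnj5 was at 7.71 or less with 0 in CAF_CM replicates 1 and 3. Without a filter on low values 1 of them was called: Kcns3, a silent modifier subunit, held 8.67, 4.08 and 5.23 and then 2.06, 1.96 and 0.949 normalized counts (log2 difference -1.37, limma adjusted p = 0.0448). The others were not called at this depth. The lowest total of any row of the table was 10 reads, so channel genes below it have no row and were not analysed here.

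The pore-forming genes can be summed per length by ion to show how the whole set moved. Potassium channel genes summed to 4952 ± 78.6 normalized counts per kilobase in control and 4628 ± 294 in CAF_CM libraries, which overlapped through CAF_CM replicate 2 (4965). Calcium channel alpha1 genes summed to 1088 ± 11.4 and 912 ± 129, and all CAF_CM libraries were below the controls. Sodium channel alpha genes summed to 182 ± 6.29 and 174 ± 23.7 and overlapped. Such sums follow their largest members, Kcnk3, Cacna1h and Scn8a, all of which were called lower.

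CAF_CM replicates 1 and 2 tended to stand at opposite ends for these genes. Among the 74 tested members, replicate 2 was the highest of the 3 treated libraries in 50 (67.6%) and replicate 1 the lowest in 44 (59.5%), where over all genes tested these shares were 35.04% and 35.3%. The full pattern held for some genes that rose, such as Cacna1g, Kcnq3 and Kcnk2, and some that fell, such as Cacna2d2 and Cacna1h. Many other called genes broke it. Replicate 1 was highest for genes such as Kcnd2, Kcnip2 and Kcnk16, and replicate 3 was highest for Kcnj3, Kcnh1 and Scn8a. Replicate 3 was lowest for Kcnk3, Kcnj11, Kcnab3, Kcnh6, Kcnn2 and Cacnb3. Without CAF_CM replicate 1, 20 members were called higher and 9 lower of 72 tested, against 21.8% and 18.4% of all genes tested. Among the members gained then were Cacna1d, Cacna1i, Cacna2d1, Kcnh7, Kcnj6, Kcnmb1, Kcnn3 and Scn3a. Without CAF_CM replicate 2, 8 were called higher and 11 lower of 72 tested, against 19.2% and 17.3% of all genes tested, and the median log2 difference of the members was 0.00124. The cause of the difference between these libraries was not tested.

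**Figure D5:**
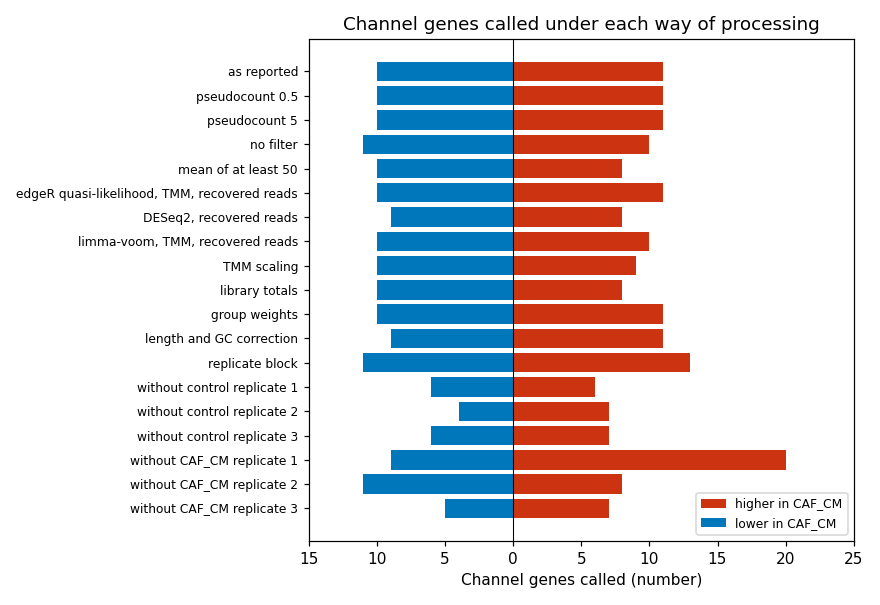
Number of channel genes called higher (red, to the right) and lower (blue, to the left) in CAF_CM libraries under each way of processing. Counts stay between 8 and 13 higher and 9 and 11 lower until a library is left out, and reach 20 higher without CAF_CM replicate 1.

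Other genes of ion transport were read against the same shares of all genes tested, 18.3% called higher and 16.1% lower. Over 5 lists that hold no member, 16 of 154 tested genes rose (10.4%) and 40 fell (25.97%), with a median log2 difference of -0.10. Pumps and exchangers gave 2 rises and 13 falls in 39 tested (median -0.20). They include Slc9a5, a sodium-proton exchanger, from 600 ± 9.67 to 371 ± 27.4 normalized counts (log2 difference -0.70), Atp1b3, a beta subunit of the sodium pump (-0.35), Slc9a8 (-0.42) and the chloride cotransporter homologue Slc12a9 (-0.31). Other cation channels gave 4 rises and 13 falls in 40 (median -0.17), with falls of the lysosomal channels Mcoln1, from 1409 ± 17.2 to 1059 ± 44.1 normalized counts, and Tpcn2 (-0.64), of the osmosensitive channel gene Tmem63a (-0.43) and of the ATP receptor gene P2rx4 (-0.41). Chloride channel genes gave 3 rises and 7 falls in 23 (median -0.11): Clic4 rose from 4626 ± 125 to 7028 ± 155 normalized counts and Ttyh3 by 0.25 log2 units, while Clcn7, the lysosomal chloride-proton exchanger, and Clcn2 fell (-0.38 and -0.41). Of the genes of calcium stores, 1 rose, Vdac1 (0.21), and 5 fell in 24 (median -0.0302), among them both sensors of store calcium, Stim1 (from 1557 ± 22.1 to 1239 ± 71.6 normalized counts) and Stim2 (-0.31), and Tmco1 (-0.36). The shares called lower in calcium stores (20.8%) and called higher in channel partners (21.4%) lay near those of all genes. Channel partners gave 6 rises and 2 falls in 28 (median 0.18), among them the calmodulin gene Calm3 (from 7673 ± 209 to 9841 ± 380 normalized counts) and Ank2, an ankyrin that anchors channels (0.52). The named genes of these lists had limma adjusted p of 0.0179 or less.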

How the data were processed

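RNA of 3 control and 3 CAF_CM libraries of 266.6 cells was made into libraries with the TruSeq kit of Illumina, as the labels' protocols state. Per the submitters' processing notes, FastQC and DESeq2 were used and the build named is the human hg19; gene symbols are of mouse form, and aligner, counting program and mouse build are not given in the sources used here. The deposited table holds a signal per gene and library, read counts divided by the authors by 1 factor per library: divided by the worth of 1 read, 100% of values came out whole (tolerance 0.001 read). Of 20764 rows, 168 without a gene symbol took between 0.153% and 0.261% of the reads and stayed out.

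From these values, limma 3.58.1 (R 4.3.3) was fitted to log2(value + 1) with a variance trend, over genes that reached 10 in 3 or more libraries, and p-values were adjusted by Benjamini-Hochberg over all genes tested with a threshold of 0.05. Fold changes are on this scale, which understates those of low genes. The test was tested on simulated data. Alternatives were other pseudocounts (0.5 and 5), filters, scalings, edgeR 4.0.16 (5570 genes called), DESeq2 1.42.0 and limma-voom on the recovered reads, group weights, a length and GC correction, a replicate block and each library left out. Length is that of the longest GENCODE M21 transcript of a symbol (97.5% of tested genes had one). The members, gene lists and tests were chosen with earlier results of these data known. Members named are those that were called, the highest of each subfamily per length, 12 set in the design, and some chosen after their values were seen. Protein sequences were not used here, and a few genes are counted but not reported by name.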

Additional observations from a re-analysis of the deposited data

How the results depend on the processing

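Over the 12 alternatives that kept all libraries, every count of channel genes stayed within 1.5 times of that reported. Leaving out 1 library at a time gave between 6 and 20 channel genes higher and between 4 and 11 lower, between 3477 and 6442 genes called in all (1865 to 3497 higher, 1612 to 2945 lower), and between 9 and 21 other ion transport genes higher and between 26 and 49 lower. Fewer libraries enter these fits. Over all alternatives, repeats of the 21 called differences kept the call 316 times and lost it 59 times, and none turned its sign. Signs turned only in genes that were not called. Kcnh2 had -0.0252 with library totals and -0.00294 after the length and GC correction, Kcnma1 -0.0398 after that correction and -0.13 without CAF_CM replicate 3, Scn9a -0.0232 after the correction, -4.47e-04 without control replicate 1 and -0.0559 without CAF_CM replicate 2, and Cacng5 -0.12 without CAF_CM replicate 2; with single libraries left out they reached at most 0.43 for Kcnma1, 0.33 for Scn9a and 0.15 for Cacng5, and the cause was not tested. With library totals the split of all called genes was 2231 higher and 3179 lower, that of channel genes 8 and 10. With library totals the median of all genes fell by 0.0452 on the log2 scale, and by less with the other scalings. Tested channel genes had longer transcripts (median 4706 bases) than all genes tested (3002), and the log2 difference correlated with length across genes (Spearman 0.208 over all 15763 genes with a length, 0.184 over the 74 members, a description); after the length and GC correction 11 channel genes were higher and 9 lower. Same-numbered libraries deviated together only weakly (correlations of 0.0703, 0.0291 and 0.0305, though each was the highest of its library), so the numbers were not taken to pair the samples. With the replicate block 13 channel genes were higher and 11 lower, and 5921 genes in all. Counts of a few reads limit the members under about 30 normalized counts.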
